A study of Mus musculus with 12 samples.

Results

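The LZ-only distal elements are transcribed elements of mouse spermatocytes that were called in leptonema/zygonema (LZ), were not called in pachynema (P) or diplonema (D), and lay away from annotated gene starts. They were found by merging the overlapping or touching dREG peaks of the 3 substages and keeping the merged elements on chromosomes 1 to 19 that held an LZ peak, held no P or D peak, and had their nearest edge 1000 bp or more from every GENCODE M21 transcription start site (TSS). Of 65172 merged elements, 63116 were on the autosomes, 37706 of these were distal, and 11639 were LZ-only distal elements. This number depended on the lists: it was 6111 when only peaks with a dREG score of 0.5 or more were kept in every list, and 4475, or 21.9% of distal elements, when each list was reduced to the length of the shortest. They were 30.9% of the distal autosomal elements (95% Wilson interval 30.4% to 31.3%, here and below for the counting error of elements only) against 24.3% of all autosomal elements and 14.6% of the elements within 1000 bp of a TSS. The elements were thus chosen by the LZ, P and D calls themselves, and these counts describe the choice.

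The data were 12 leChRO-seq libraries from wild-type mouse testis, 4 for each of LZ, P and D, from cells separated by size through sedimentation at unit gravity (STAPUT). The deposited lists each merged the 4 libraries of a substage, so every substage had 1 list, there was no spread between replicates, and no difference between substages was tested. All groups carried the same genotype and no agent, and the study's methods give C57Bl/6J or DBA/2J as the background of its mice; a STAPUT fraction is an enrichment and holds other cells too. The LZ list held 71107 peaks, the P list 68352 and the D list 38603, and none gives a read depth. The study's methods give a normalization factor for each leChRO-seq library that joins library size and the transcriptional activity of the substage. These factors add up to more for LZ than for P or D, and the depth behind each list was not derived from them here. An element without a P or D peak may still have been transcribed there below the calling threshold.

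Leptonema and zygonema open meiotic prophase I, when programmed DNA breaks form, the chromosome axes assemble and homologues begin to pair. leChRO-seq maps engaged RNA polymerase through run-on nascent RNA, and dREG is a classifier that scores the paired, outward transcription found at active promoters and at enhancers, whose short unstable transcripts are called enhancer RNAs. A distal dREG peak is therefore a candidate enhancer, or the start of an unannotated transcript.

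Sequences show what these elements looked like. Each of the following 4 is the plus strand of the mm10 reference in a window that reaches 100 bp to each side of the centre of the peak, and capitals mark every match, on either strand, to 20 short motifs of transcription factors. They are the highest-scoring element of all, in an intron of Tbpl1 at chr10:22716041-22716440, the highest-scoring element outside any gene, 270298 bp from the TSS of Dab2 at chr15:6028981-6029490, the highest-scoring element nearest to E2f6 at chr12:16855911-16856490, and the highest-scoring element in an intron of Ankrd31 at chr13:96767791-96768310.
Tbpl1 intron: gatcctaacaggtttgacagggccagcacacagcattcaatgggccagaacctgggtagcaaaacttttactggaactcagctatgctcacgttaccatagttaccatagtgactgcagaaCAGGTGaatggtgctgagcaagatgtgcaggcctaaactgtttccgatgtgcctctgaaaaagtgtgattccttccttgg
Dab2 distal: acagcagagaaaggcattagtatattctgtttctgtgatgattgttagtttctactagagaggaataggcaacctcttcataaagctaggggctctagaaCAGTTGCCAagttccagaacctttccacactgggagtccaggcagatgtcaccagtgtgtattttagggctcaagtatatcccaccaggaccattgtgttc
E2f6 distal: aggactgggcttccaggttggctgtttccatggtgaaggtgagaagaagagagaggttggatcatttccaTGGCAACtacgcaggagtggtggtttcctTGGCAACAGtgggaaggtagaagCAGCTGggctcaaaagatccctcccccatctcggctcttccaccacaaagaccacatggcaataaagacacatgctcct
Ankrd31 intron: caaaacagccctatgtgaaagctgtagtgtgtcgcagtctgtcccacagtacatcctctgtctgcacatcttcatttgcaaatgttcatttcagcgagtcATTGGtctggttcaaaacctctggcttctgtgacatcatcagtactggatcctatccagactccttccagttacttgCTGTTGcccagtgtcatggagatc
The Tbpl1 window held 1 match, to the E-box CACCTG. The Dab2 window held the MYB core CNGTTG and the RFX core GTTGCNA, in overlapping bases. Dab2 was its nearest protein-coding gene, but the nearest annotated TSS of any gene was 5471 bp away. The E2f6 window held the RFX core in 2 separate places, one of them in bases shared with the MYB core, and the E-box CAGCTG. The Ankrd31 window held CCAAT and the MYB core.

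As a class the LZ-only distal elements had low dREG scores. Their median top score was 0.388 (quartiles 0.331 and 0.484, range 0.247 to 1.309) against 0.78 for the 16932 distal elements that held an LZ peak and a P or D peak. Their median width was 390 bp (quartiles 310 and 480 bp) against 690 bp, but the comparison elements join peaks of several lists and are wider by construction, and the merging rule likewise left exactly 1 peak in each LZ-only element. A score of at least 0.5 was reached by 2604 of them, or 22.4%, against 77.3% of the elements also called later, and 38 reached 1. The deposited p-value was above 0.01 for 33.2% of them and for 7.12% of the elements also called later. Distal elements called only in P shared these traits. These 6423 elements had a median width of 360 bp and a median score of 0.365, 15.4% reached a score of 0.5, and 37.2% had a p-value above 0.01. The share of distal LZ elements that were LZ-only went down from 79.8% in the lowest decile of LZ scores to 50.4% in the fifth and 0.245% in the highest, where 7 of 2857 were LZ-only. The score is from the same list as the calls, so these values describe the class and support nothing about it. The plot of scores and of the LZ-only share by score shows both.

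**Figure D1:**
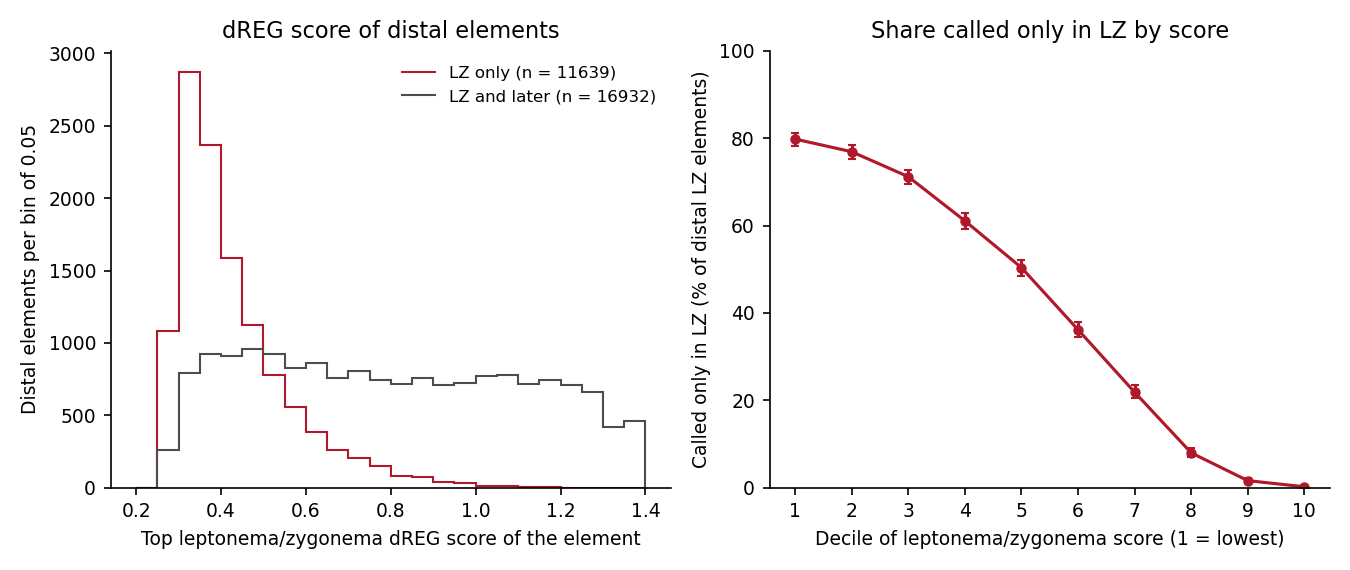
Left, number of distal elements (y axis) in bins of 0.05 of the top LZ dREG score (x axis) for LZ-only elements and for elements with an LZ and a P or D peak; scores past the end of the axis are in the last bin. Right, share of distal LZ elements called only in LZ (y axis, percent) by decile of LZ score (x axis), with 95% Wilson intervals; the share goes from 79.8% to 0.245%.

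Elements on either side of the TSS limit were alike in score. The 5 LZ-only elements just inside the limit were 1000 or 1001 bp from a TSS and scored 0.322 to 0.534, and the 5 just outside were 996 to 999 bp away and scored 0.329 to 0.525. The median score was 0.384 for the 144 LZ-only elements from 1000 to 1100 bp and 0.4 for the 180 from 900 to 1000 bp.

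The highest-scoring LZ-only distal elements were mostly in introns and, except in Grip1, lay 8700 bp or more from any later peak. The intronic element of Tbpl1, which encodes a TBP-related factor needed for spermatid development, scored 1.309 and was 14250 bp from the nearest P peak and 9656 bp from the nearest TSS. The Tbpl1 promoter itself was called in all 3 substages. An element in an intron of Rnf144b, an E3 ubiquitin ligase gene, at chr13:47167471-47167960 scored 1.206 and was 8700 bp from a P peak. One in an intron of Grip1, which encodes a scaffold protein with PDZ domains, at chr10:119645821-119646490 scored 1.191 but was 190 bp from a P peak. An element in an intron of Arhgap28, a GTPase-activating protein gene, at chr17:67848211-67849010 scored 1.187 and was 10020 bp from the nearest later peak. The intergenic element nearest to Dab2, an adaptor gene of endocytosis, scored 1.173. This element was 75940 bp from a P peak, 76250 bp from a D peak and 5471 bp from the nearest annotated TSS. Elements in introns of Dlgap4, a gene of a synaptic scaffold protein, at chr2:156682641-156683310 and of Tcp11l1 at chr2:104688881-104689410 scored 1.164 and 1.16 and were 34670 and 21960 bp from the nearest later peak. All 7 had a deposited p-value listed as 0. This did not set them apart, since 2509 LZ-only elements (21.6%) had such a value and only 38 reached a score of 1.

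The distance to later peaks divided the class. Of the 11639 elements, 3380 (29%, 28.2% to 29.9%) were within 1000 bp of a P or D peak without touching one, and 1193 (10.3%) were within 100 bp. The nearest later element to those 3380 also held an LZ peak in 87.6% and was TSS-proximal in 16.7%. Such elements were also the more common ones among all distal elements, where 16932 held an LZ peak and a later peak. Without an LZ peak, 6423 held a P peak alone, 1134 a D peak alone and 1578 both. An LZ peak can also extend the edge of a merged element and so bring it nearer. The limit of 1000 bp to a TSS holds down the TSS-proximal share. At the other end, 5007 of the LZ-only elements (43%, 42.1% to 43.9%) were over 10000 bp from every P and D peak. Of the LZ-only elements, 645 (5.54%) were over 100000 bp away. The share within 1000 bp fell to 15.6% and 6.13% when peaks up to 100 and 500 bp apart were merged, to 15.1% with lists of equal length and to 17.5% with scores of 0.5 or more. The median distance was 6790 bp, and 7060 bp to P peaks alone against 18840 bp to the shorter D list. The P-only distal elements were placed alike in relation to peaks of the other substages, with 30.7% within 1000 bp and a median of 7050 bp. Elements within 20 bp of a later peak reached a score of 0.5 in 13% (9.4% to 17.7%), and elements 10000 to 100000 bp away in 26.3% (25.1% to 27.7%). The plot of cumulative distance gives the whole range.

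**Figure D2:**
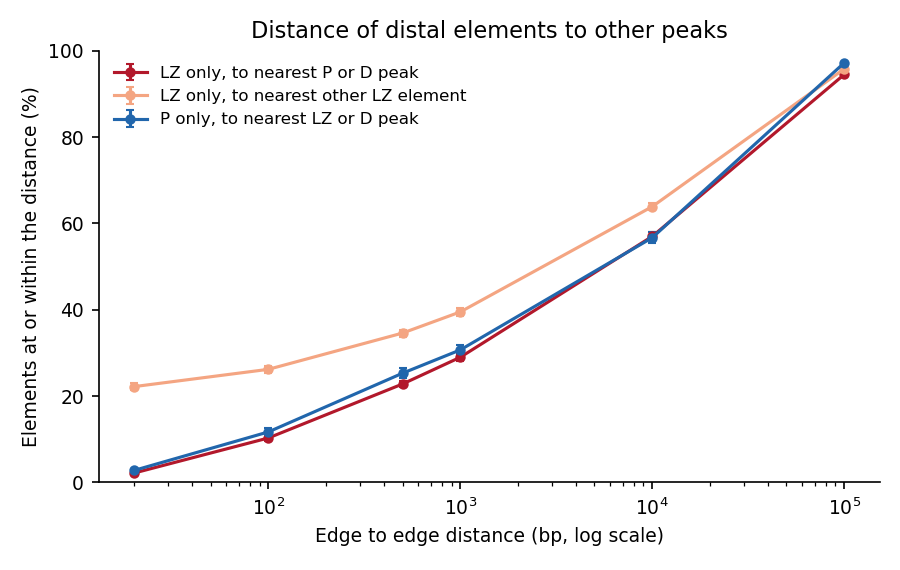
Share of elements (y axis, percent) at or within a given edge to edge distance (x axis, bp, log scale), with 95% Wilson intervals, for LZ-only distal elements to the nearest P or D peak and to the nearest other LZ element, and for P-only distal elements to the nearest LZ or D peak. The curve of P-only elements lies close to that of LZ-only elements to P or D peaks, and 22.2% of LZ-only elements had another LZ element within 20 bp.

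The LZ-only distal elements were split about evenly between genes and the space between them. The peak centre was in an intron for 5169 (44.4%, 43.5% to 45.3%), in an exon for 685 (5.89%, 5.47% to 6.33%) and between genes for 5785 (49.7%, 48.8% to 50.6%). The intron share was 41% for distal elements also called later and 41.9% for P-only elements; after weighting the former to the LZ scores of the LZ-only elements it was 41.4%. The median distance to a protein-coding TSS was 26574 bp, against 32462 bp for elements also called later and 27439 bp for P-only elements, and 24.5% were over 100000 bp from one. Among the 4979 inside a protein-coding gene, 19.1% were in its first intron, against 19.3% for elements also called later. By chromosome, their share of the distal elements ranged from 27.6% on chromosome 10 to 32.4% on chromosome 4.

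The genes that held LZ-only distal elements mostly had promoter peaks in all substages. Of the 4979 elements inside protein-coding genes, 75.4% were in a gene with an LZ peak within 1000 bp of one of its TSSs, 78.7% (77.6% to 79.8%) in a gene with such a P peak and 66.5% in a gene with such a D peak, and for 63.4% the promoter was called in all 3. Elements also called later gave 72.2%, 75.1%, 62.3% and 59.4%, and P-only elements gave 73.4%, 77.2%, 63.6% and 60.5%. Over all 20807 autosomal protein-coding genes the shares were 60.7%, 61.2%, 52.3% and 50.2%, with each gene counted once. An LZ-only promoter was found for 1.93% (1.58% to 2.35%) of the genic LZ-only elements, against 2.71% (2.35% to 3.14%) of those also called later and 2.84% of all genes. The plot of location and promoter calls sets the 3 classes side by side.

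**Figure D3:**
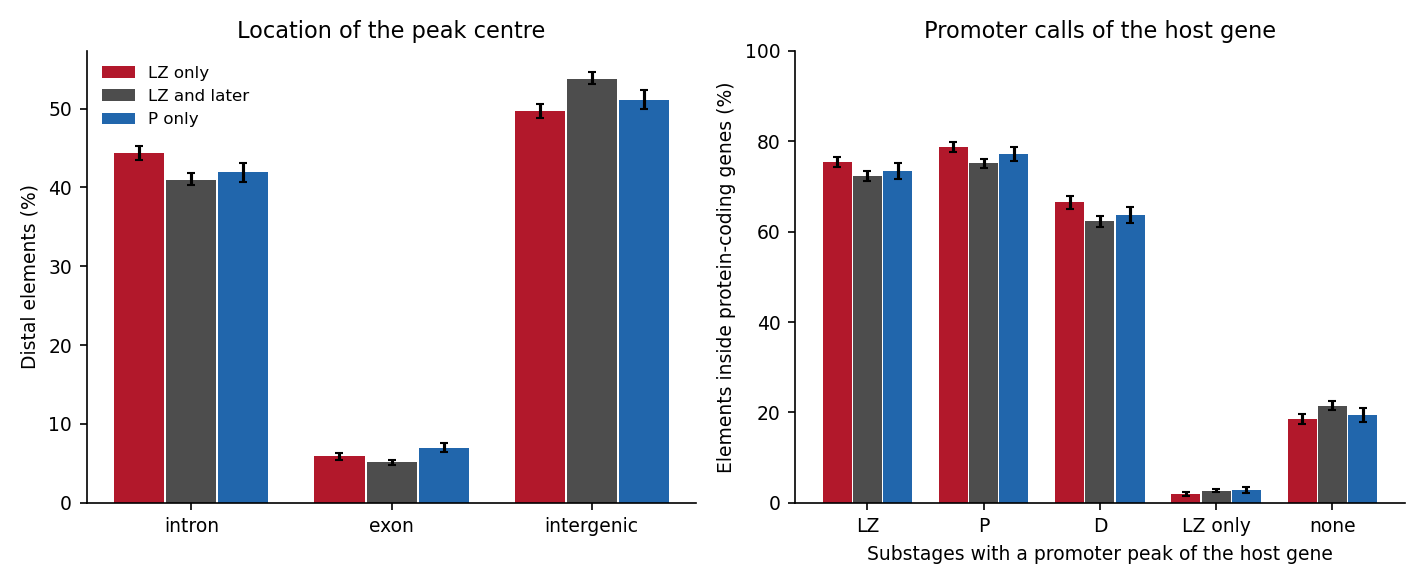
Left, share of distal elements (y axis, percent) whose peak centre was in an intron, in an exon or between genes. Right, share of elements inside protein-coding genes (y axis, percent) by the substages in which the host gene had a promoter peak; bars are LZ-only, LZ-and-later and P-only elements with 95% Wilson intervals, and the 3 classes are within a few percentage points of each other in each group of bars.

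A promoter peak in LZ alone was found for 2.51% (2.05% to 3.06%) of the 3709 protein-coding genes that held distal elements also called later. Over all autosomal protein-coding genes the share was 2.84%. Of the 3194 protein-coding genes that held an LZ-only distal element, 70 (2.19%, 1.74% to 2.76%) had such a promoter, with 96 elements between them. Cyp19a1, which encodes aromatase, the enzyme that turns androgens into estrogens, held 3, with the highest score of these genes at 1.013 (chr9:54265591-54266300), 1810 bp from a TSS and 3840 bp from the nearest later peak. Dyrk2, a protein kinase gene, held 2 (top score 0.707), and Setbp1, which encodes a SET-binding protein, held 3 (0.647). Single elements were in Osbpl6, a gene of the oxysterol-binding protein family (0.762), in Lipo2, a lipase gene (0.673), in Esrrg, an orphan nuclear receptor gene (0.663), in Afmid, an enzyme gene of tryptophan breakdown (0.628), and in Cd44, a hyaluronan receptor gene (0.624). 1700007K13Rik (0.67) and N4bp3 (0.601) held 2 each. Distal elements also called later were inside 4 of these 10 genes, namely Cyp19a1 (2), Esrrg (3), Setbp1 (2) and Afmid (1).

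LZ-only distal elements were spread over many genes rather than gathered in a few. They were inside 3194 protein-coding genes, of which 2177 held 1, 82 held 5 or more and 7 held 10 or more. The genes with most were long. Gm20388, an annotated locus of 4435 kb that spans other genes, held 14. Cntnap2, a neurexin family gene, held 13 in 2245 kb, or 0.579 per 100 kb, with 6 elements also called later. Erc2, a gene of the presynaptic active zone, and Cdh13, a cadherin gene, held 11 each, and no promoter peak was called for Cdh13 in any substage. Fhit, Pde4d, a cAMP phosphodiesterase gene, and Ptprn2, a receptor phosphatase family gene, held 10 each, and the promoter of Ptprn2 was called in P alone. Dnm3, a dynamin gene, and Ctnnd2, a delta-catenin gene, held 9 each. In Dnm3 and Ctnnd2 they outnumbered the 3 and 2 elements also called later. Elements also called later numbered 7 in Fhit, 9 each in Pde4d and Ptprn2 and 10 in Erc2. They outnumbered the LZ-only elements in Gm20388, with 32, and in Cdh13, with 12.

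Most LZ-only distal elements had no other LZ-only element close by. When those up to 12.5 kb apart were chained, 8173 (70.2%) had no other LZ-only element in their chain. Within 10000 bp, 63.9% of all LZ-only elements had some other LZ element and 57% a P or D peak. All LZ elements and all later peaks outnumber the LZ-only elements, so these shares are not on an equal footing. Another LZ-only element lay within 20 bp of 1294 (11.1%), and such neighbours were counted as separate elements. Of the chains, 10 held 5 or more. The largest was in Tfcp2l1, a transcription factor gene, with 6 elements over 17.54 kb at chr1:118667181-118684720, scores up to 0.489 and 1 later element among them. Hspa12a, an HSP70 family gene, had 5 over 18.67 kb at chr19:58877271-58895940, with a top score of 1.046 and no later element among them. Another chain, between Atp23 and the phosphatase gene Ctdsp2 at chr10:126934861-126947970, had 5 over 13.11 kb, with a top score of 0.773 and no later element. Other chains of 5 did hold later elements. The chain nearest to Cdk1 and Rhobtb1 held 3 over 24.21 kb, and those nearest to Gpr180 and in Prr30 held 1 each.

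Genes of meiosis were examined for LZ-only distal elements inside them or with them as the nearest protein-coding gene. Over all autosomal protein-coding genes, 6411 of 20807 (30.8%) had at least 1. Genes of meiotic entry had them in 8 of 12 (66.7%, 39.1% to 86.2%), and elements also called later in 7 of 12 (58.3%), against 36.1% of all genes. E2f6, a repressor of germline genes in somatic cells, had 1 element that scored 0.975 and was 2040 bp from a P peak. This element was 31760 bp from the E2f6 TSS and 5030 bp from the nearest annotated TSS. Max, the partner of the repressor MGA, had 5, the highest at 0.75, and Mga had 1 at 0.298. The retinoic acid receptor genes Rarb and Rara had 5 and 2, with top scores of 0.455 and 0.435. Cyp26b1, which encodes an enzyme that degrades retinoic acid, had 3 (top 0.467, 30 bp from a P peak), Ythdc2, a meiotic RNA helicase gene, had 1 (0.511), and Dazl, a germ cell RNA-binding protein gene, had 1 (0.26), 70 bp from a P peak.

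The other meiotic lists had shares nearer to that of all genes. For DNA breaks and strand exchange it was 8 of 24 (33.3%, 18% to 53.3%). Ankrd31, whose product acts in break formation, had 3 inside it, the highest in an intron at 0.743. Mei1 had 2 (0.417), Hsf2bp 2 (0.416), Mei4 3 (0.404) and Hfm1, a helicase gene of crossing over, 1 (0.359). The Mei4 and Hfm1 elements with these scores were outside the genes, 392532 and 93542 bp from their TSSs. For the synaptonemal complex and axis it was 4 of 13 (30.8%, 12.7% to 57.6%), made up of Hormad2 (0.654), Hormad1 (0.437), Sycp1 (0.334) and Smc1b (0.329), all with a promoter called in all 3 substages. Six6os1 was not matched by name. For DNA replication it was 3 of 18 (16.7%, 5.84% to 39.2%), namely Mcm6 (0.443), Pole (0.423) and Gmnn (0.369). Gene length was not held equal between lists.

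Marker genes of cell types were looked up in the same way. Promoter peaks in LZ were found for 14 of 14 pachytene markers, 14 of 19 spermatogonial markers and 12 of 14 spermatid markers, in P for 14, 14 and 11, and in D for 14, 8 and 11; over all autosomal protein-coding genes the shares were 60.7%, 61.2% and 52.3%. Of somatic markers, LZ promoter peaks were found for 0 of 9 Leydig cell genes, 1 of 6 peritubular genes, 2 of 8 macrophage and blood genes, 2 of 6 endothelial genes and 4 of 11 Sertoli cell genes, P promoter peaks for 2, 2, 1, 2 and 7 in the same order, and D promoter peaks for 1, 0, 1, 0 and 6. LZ-only distal elements belonged to 9 of 19 spermatogonial genes (47.4%, 27.3% to 68.3%), against 30.8% of all genes, and elements also called later to 11 of 19 (57.9%). Zbtb16, the PLZF gene of undifferentiated spermatogonia, had 1 in an intron that scored 0.896 and was 88690 bp from the nearest later peak. Foxo1, a spermatogonial forkhead gene, had 7 (top 0.73), Nanos3 2 (0.622), Cdh1 1 (0.506) and Sohlh1, a transcription factor gene of differentiating spermatogonia, 1 (0.497). The Cdh1 element was 70 bp from a P peak and 110 bp from a D peak.

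They also belonged to 6 of 14 pachytene genes, 3 of 14 spermatid genes and 5 of 11 Sertoli genes, and elements also called later belonged to 6, 5 and 5 of these genes. After Tbpl1, the pachytene genes with the highest scores were Pgk2, a germ cell glycolysis gene (0.542), Spag6l, an axoneme gene (0.485), Ccna1 (0.391) and Brdt, a bromodomain gene (0.354). The spermatid genes were Gapdhs (0.404), Tnp1 (0.392) and Odf1 (0.312). Sox9, a Sertoli transcription factor gene in a wide gene-free region, had 11 (top 0.662, 725364 bp from its TSS), Wt1 had 1 (0.574), Aard 2 (0.46), Gata4 1 (0.323) and Inhbb 1 (0.322). Of endothelial genes 5 of 6 had one, among them Cdh5 (0.58), Vwf (0.406), Kdr (0.396), Flt1 (0.347) and Tek (0.299), and of peritubular genes 3 of 6, namely Cnn1 (0.614), Myh11 (0.333) and Pdgfra (0.322). Elements also called later belonged to 4 of the endothelial and 2 of the peritubular genes. No Leydig cell gene of 9 and no macrophage or blood gene of 8 had an LZ-only element, and 1 of each had an element also called later. These lists are short, and the share over all genes was 30.8% for LZ-only elements and 36.1% for elements also called later. The part of other cell types in the LZ-only calls was not tested.

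The sequence of LZ-only distal elements was poorer in CpG. In these windows, 10 or more CpG were found in 2.89% (2.6% to 3.21%) of LZ-only elements, 5.93% of elements also called later and 5.56% of P-only elements. Weighting the elements also called later to the LZ scores of the LZ-only elements took their share to 7.56%, so the difference was larger at equal score. Median GC content was 46.8% against 47.8% and 48.3%.

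The motifs with a CpG among the 20 were also rarer than in elements also called later. Motif shares were counted on both strands and set against elements also called later, weighted first to the GC content of the LZ-only elements in bins of 5 percentage points, and then to GC content and LZ score together; the second weighting was added after the scores had been seen. The ETS motif CCGGAAG was in 1.46% (1.26% to 1.7%) of LZ-only windows, 0.629 times the share in GC-weighted windows and 0.519 times that at equal score. The NRF1 motif was in 0.378%, with ratios of 0.638 and 0.509, and GGGCGG, the SP/KLF motif, in 4.76%, with 0.725 and 0.654. TGACGT, the CREB/ATF core, was in 3.33%, with 0.684 and 0.765, and in 3.25% of P-only windows. The MYB core CNGTTG, bound by A-MYB, a regulator of pachytene genes, was in 29.2% (28.4% to 30%). Elements also called later had 33.6% after GC weighting and 31.5% at equal score, which gave ratios of 0.868 and 0.927. Without weighting they had 34.2%, and P-only elements 32.5%.

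A few motifs depended on the comparison. The RFX core GTTGCNA was in 10.6% (10% to 11.1%), 0.698 times the GC-weighted share but 1.08 times the share at equal score, and 7.75% of P-only windows held it. The E-box CAGCTG was in 10.1%, with ratios of 1.11 and 0.969, while CACCTG was in 16.2% with 1.07 and 1.03 and CACGTG in 2.87% with 0.861 and 0.785. CNCCTCAG, the motif of STRA8, which drives meiotic entry, was in 4.17% (3.82% to 4.55%) with 1.01 and 0.967, and both comparison shares were inside that interval. CAAGGTCA, the NR5A/ESRR site, was higher in both weightings, at 1.42% (1.22% to 1.65%) with 1.22 and 1.48, yet 2.51% of P-only windows held it. The AACAATGG site of SOX factors was in 1.54%, with 0.7 and 0.806 and 0.887% of P-only windows. A motif match describes letters in a window and does not show that a factor was bound there. The plot of motif ratios shows all 20.

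**Figure D4:**
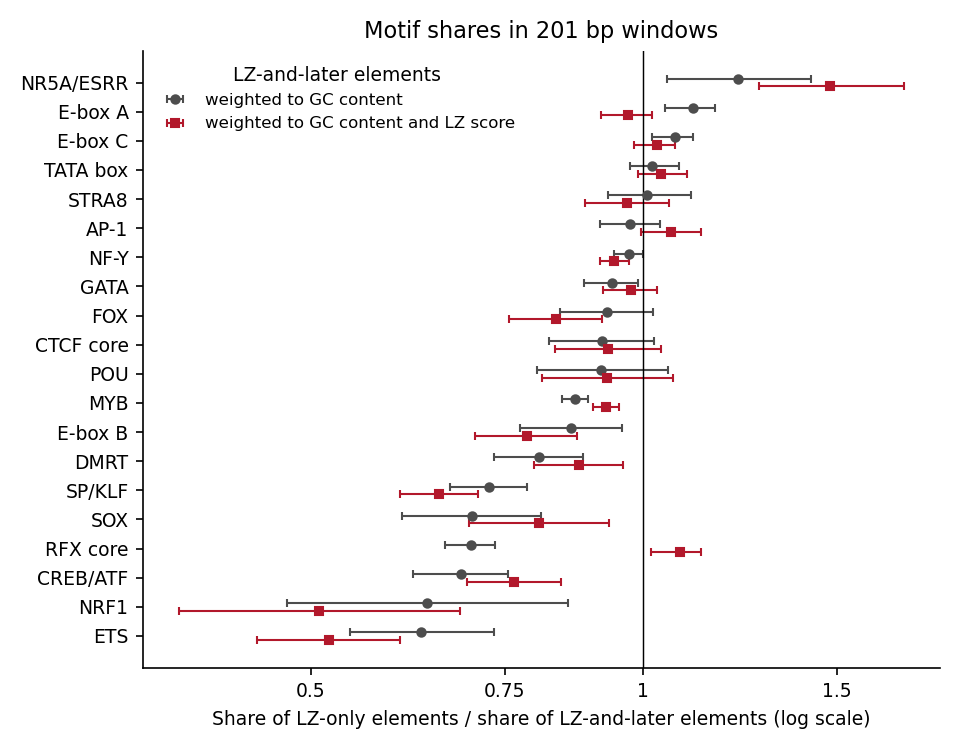
Share of LZ-only windows that hold a motif divided by the share of LZ-and-later windows (x axis, log scale) for 20 motifs (y axis), after weighting to GC content (circles) or to GC content and LZ score (squares); bars are the 95% Wilson interval of the LZ-only share over the comparison share. E-box A has the letters CAGCTG, E-box B has CACGTG, and E-box C has CACCTG; the RFX core goes from 0.698 to 1.08 and NR5A/ESRR from 1.22 to 1.48.

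Of 1988 hexamers found in at least 1% of LZ-only windows, CGGGAC had the highest GC-weighted ratio, at 1.41, and 1.02 at equal LZ score. Next came CCGGAC with a ratio of 1.31 and 1.08 at equal score, then CGGACA with 1.29 and 1.16, then CGGACC with 1.29 and 0.948, and then GTGCAC with 1.23 and 0.973. The first 4 of these hold a CpG, in contrast to the rarer CpG motifs above. At the other end were GACGTA, with 0.661 and 0.705 at equal score, and AATCGG, with 0.682 and 0.652, which also hold a CpG and were named after their values were seen. Of the windows with CCGGAC, 44.3% were over 50% soft-masked, the lower-case marking of repeated and low-complexity sequence in the reference, against 21.3% of all LZ-only windows; in windows under 50% soft-masked its ratio was 0.985. In the same windows the ratio was 1.25 for CGGGAC, 1.09 for CGGACA, 1.04 for CGGACC and 1.18 for GTGCAC.

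A small set of LZ-only distal elements lay in sequence present many times in the genome. The number of places at which each 24-base word of a window occurs in mm10, on either strand, was counted, and the median over the window taken. This median was 10 or more for 914 LZ-only elements (7.85%, 7.38% to 8.36%), 4.96% of elements also called later and 3.53% of P-only elements; at equal LZ score the elements also called later had 8.09%. At 1000 places or more there were 167 LZ-only elements (1.43%, 1.23% to 1.67%), against 0.372%, 0.605% at equal score, and 0.358% of P-only elements. Of all 230 distal LZ elements in such windows 72.6% (66.5% to 78%) were LZ-only, and of those at fewer than 10 places 40%. Reads from near-identical copies cannot be placed with certainty, and whether reads with several matching places entered these peak calls was not examined here. The plot by copy number shows the steps.

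**Figure D5:**
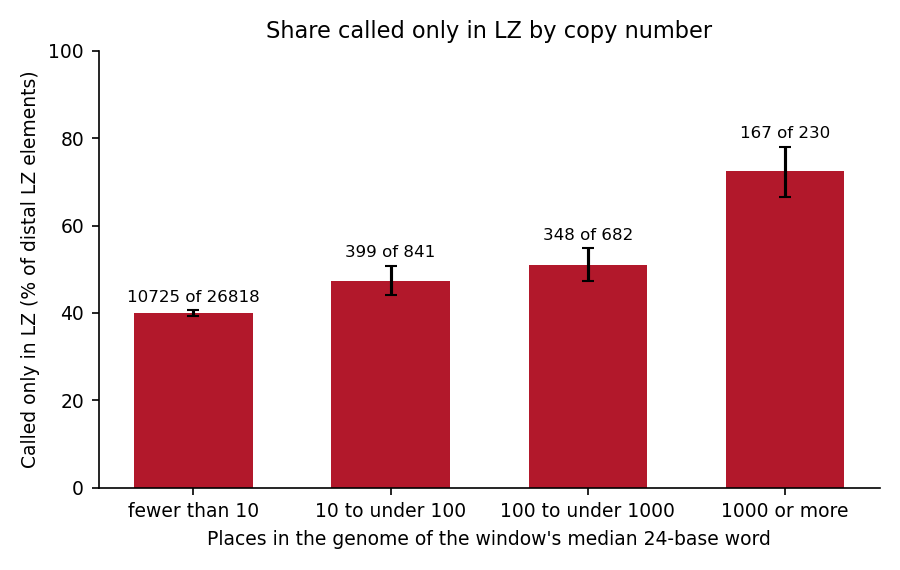
Share of distal LZ elements called only in LZ (y axis, percent) by the number of genome places of the median 24-base word of the window (x axis), with 95% Wilson intervals and the counts above the bars. The share goes from 40% at fewer than 10 places to 72.6% at 1000 or more.

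Words that recur among LZ-only distal elements can be shown in the windows that carry them. The 24-base word held by most LZ-only windows, after leaving out low-complexity words, is in capitals in the first window (chr4:35333036-35333236); the next words, each counted over windows without the earlier ones, are in the second (chr9:57368061-57368261) and the third (chr15:30251481-30251681, an intron of Ctnnd2), and the seventh is in the fourth (chr12:108829556-108829756, an intron of Slc25a29). Each is an LZ-only element that holds its word, shown on the plus strand of mm10. The element shown need not be the highest-scoring one with that word, since not every chromosome entered the choice.
word 1: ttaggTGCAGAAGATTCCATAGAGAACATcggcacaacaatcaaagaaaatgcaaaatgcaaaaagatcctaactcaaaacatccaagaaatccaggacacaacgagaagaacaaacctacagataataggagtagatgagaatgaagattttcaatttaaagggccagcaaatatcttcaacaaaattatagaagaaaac
word 2: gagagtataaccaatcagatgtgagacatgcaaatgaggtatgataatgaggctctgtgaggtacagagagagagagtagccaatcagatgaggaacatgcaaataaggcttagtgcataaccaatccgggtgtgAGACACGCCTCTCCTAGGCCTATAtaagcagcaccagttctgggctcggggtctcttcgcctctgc
word 3: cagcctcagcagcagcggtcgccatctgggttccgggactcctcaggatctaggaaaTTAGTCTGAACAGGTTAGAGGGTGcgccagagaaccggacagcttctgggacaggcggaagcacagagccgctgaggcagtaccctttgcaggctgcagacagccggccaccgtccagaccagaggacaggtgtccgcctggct
word 7: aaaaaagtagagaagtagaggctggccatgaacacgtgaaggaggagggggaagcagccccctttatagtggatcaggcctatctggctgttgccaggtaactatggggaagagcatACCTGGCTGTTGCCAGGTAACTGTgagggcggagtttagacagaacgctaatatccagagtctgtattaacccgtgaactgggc
Word 1 occurs at 14071 places in mm10 and was in 91 LZ-only windows on 19 chromosomes, 51 windows of elements also called later and 4 P-only windows. Word 2, found at 1192 places, was in 59, 69 and 7, and word 3, found at 2048 places, in 51, 24 and 3. Word 7, found at 787 places, went the other way, in 25 LZ-only windows, 77 windows of elements also called later and 2 P-only windows. Any of the 8 most frequent words was in 368 LZ-only windows (3.16%, 2.86% to 3.5%), 1.79% of windows of elements also called later, 2.12% of these at equal score, and 0.311% of P-only windows. Since the words were picked for being frequent in LZ-only windows, these shares are a description.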

How the data were processed

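The 3 deposited lists hold, per substage, the dREG peaks that the authors called on 4 merged leChRO-seq libraries with default settings, after trimming with cutadapt and mapping to mm10 with BWA (versions not given in the sources used here). Each peak has a deposited dREG score and a deposited p-value, at most 0.05; a further column of positions was not used. They give no read depth. Gene starts and bodies were from GENCODE M21, sequence and soft-masking from the RefSeq copy of mm10, read with pysam 0.24.0. Peaks were merged in Python 3.11.15 with pandas 2.3.3 and numpy 2.4.6; motifs, hexamers and 24-base words were counted within 100 bp of the centre of the highest-scoring peak. Comparison elements were weighted to the bins of the LZ-only elements without resampling. Shares have Wilson intervals at 95%; neighbouring elements are not independent. With 1 list per substage no test was made. Merging, distances and motif counts were checked on simulated data. The elements, gene lists and motifs were chosen with earlier results of these data known; the score weighting, copy numbers and words were added after values had been seen. Genes were named by fixed rules: the 10 with most elements (1 of these is not reported here), the 6 highest-scoring elements and the 5 highest over 10000 bp from later peaks, up to 5 per list (all 8 for meiotic entry), the 10 with LZ-only promoters, the 3 largest chains and the 5 top hexamers.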

Additional observations from a re-analysis of the deposited data

How the results depend on the processing

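The number of LZ-only distal elements was 6111 with only peaks of score 0.5 or more in every list and 4475 with each list reduced to its 38603 highest-scoring peaks; under the other 8 alternatives it stayed within 1.5 times of 11639 (8004 to 13065). Their share of distal elements was 21.9% with equal list lengths, 28.1% and 26.8% with peaks up to 100 and 500 bp apart merged, 30.2% at 5000 bp from TSSs, 29.3% with protein-coding TSSs, and 23.8% when no later peak was allowed within 500 bp. The intron share was 45.4% at 500 bp and 40.8% at 5000 bp from TSSs. The share within 1000 bp of a later peak was 17.5% with scores of 0.5 or more, 26.6% with p-values up to 0.01, 15.1% with equal list lengths, 15.6% and 6.13% with merging over 100 and 500 bp, 32.6% and 26.2% at 500 and 5000 bp from TSSs, 31.3% with protein-coding TSSs and 30.2% from the element's centre. The median score was 0.627, 0.451 and 0.675 under the first 3 of these, 0.396 and 0.399 under the merging distances and 0.393 with no later peak within 500 bp. The share in genes with a P promoter peak was 69.9%, 76.1% and 69.5% under the score, p-value and equal-length choices and 76.2% at 5000 bp. The median soft-masked share, 12.9%, was 11.9% with scores of 0.5 or more, 11.4% with equal lengths, 11.9% with merging over 500 bp and 13.9% at 5000 bp. The score and p-value limits also thin the P and D lists, and the equal-length limit thins the LZ and P lists only.

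Of 20 motifs, 15 were less frequent in LZ-only elements, and 13 to 15 under the alternatives. Of the 13 whose interval left out the comparison share, those that changed side of 1 were AGATAA without GC weighting (1.01), CACCTG in windows under 50% soft-masked (0.996), and, at equal LZ score, GTTGCNA (1.08) and CAGCTG (0.969). Of the other 7, the AP-1 motif lay at 1.06 at equal LZ score and 1.02 in windows under 50% soft-masked, against 0.974, and the STRA8 motif at 0.967 at equal score and 0.951 without GC weighting, against 1.01. TGTTTAC lay at 1.01 in windows of 50 bp to each side and 1.02 under 50% soft-masked, and in windows of 150 bp to each side ATGCAAAT lay at 1.03 and TATAAA at 0.977. No paired analysis was possible because the 4 libraries of a substage were joined into 1 list, so that no replicate could be paired or left out.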

Other observations

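The sex chromosomes, left out of the LZ-only distal elements by their definition, gave similar distal shares. On the X chromosome 308 of 1001 distal elements were LZ-only (30.8%, 28% to 33.7%), against 30.9% on the autosomes, and 140 of 954 TSS-proximal elements (14.7%, 12.6% to 17.1%) against 14.6%. On the Y chromosome 18 of 55 distal elements were LZ-only (32.7%, 21.8% to 45.9%), and 24 of 46 TSS-proximal elements (52.2%, 38.1% to 65.9%). These shares compare calls in pooled lists and were not tested between substages.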
